A study of Homo sapiens with 12 samples.

Results

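The well-expressed long non-coding RNAs of A549 cells were followed over exposure to TGFβ. A gene belonged to the set when the deposited table gave its type as lncRNA, its symbol did not start with SNHG and was not GAS5, and its mean level over the libraries was at least 10 CPM (counts scaled to a common library total). This rule found 124 of the 7546 lncRNA genes in a table of 29035 genes (1.64%), and these 124 held 56.4% of all lncRNA molecules counted. Members were thus chosen by the mean level, so the levels below are a description. The changes over time were not used directly, but the mean took in the libraries after TGFβ. A gene that was low before could therefore enter by its later levels, as NKILA did with 4 UMIs in each untreated library. A gene that fell could likewise enter by its early levels, as GACAT2 did with 3 and 4 UMIs in the 96 h libraries. The rule thus leaned toward genes that rose from a low level or fell to one. The 3 members nearest to the limit were CASC9 (10.3 CPM), LINC00467 (10.3 CPM) and AC058791.1 (10.6 CPM), and the nearest genes left out were LINC01833 (9.93 CPM), MIR4458HG (9.82 CPM) and GARS-DT (9.75 CPM).

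A549 is a line from a human lung adenocarcinoma, and all of its cells here were treated with TGFβ at 4 ng/mL except those taken at 0 h. The groups were untreated cells (0 h) and cells after 0.5 h, 12 h, 24 h, 48 h and 96 h of TGFβ, with 2 libraries of 384 single-cell wells each, 12 libraries in all. The method, CEL-Seq2, starts at the poly(A) tail and marks each captured molecule with a unique molecular identifier (UMI), so transcripts without a tail are poorly seen. The labels do not say whether the 2 libraries of a time came from separate cultures, so every p-value measures only the spread between libraries, which may be technical. Kept cells numbered 54 to 217 per library (1871 of 4608 wells) and their summed UMIs 1407221 to 4949776. The libraries with the fewest cells were those at 96 h (54 and 64). All 6 replicate 1 libraries used a single set of 384 cell barcodes and all 6 replicate 2 libraries another, with 0 barcodes shared between the sets, so replicate number and barcode set cannot be told apart. Of the markers for the tissue, KRT8 (516 to 1205 CPM), KRT18 (361 to 1686 CPM), ALDH1A1 (2890 to 6753 CPM) and AKR1B10 (440.0 to 6483 CPM) were present in every library, while EPCAM was low (0.69 to 6.01 CPM). Markers of other cells were at or near 0 over all 12 libraries, with 0 UMIs for PTPRC (immune), 1 each for PECAM1 and CDH5 (endothelial), and 19 for PDGFRA and 2 for PDGFRB (fibroblast).

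Long non-coding RNAs are transcripts that encode no known protein, and many are spliced and polyadenylated like mRNAs. Some build structures in the nucleus, some bind proteins or other RNAs in the cytoplasm, and some are mainly precursors from which microRNAs are cut or by-products of transcription next to a protein-coding gene. TGFβ is a secreted ligand whose receptor kinases phosphorylate SMAD2 and SMAD3, which bind SMAD4 and move to the nucleus, where they act with factors such as AP-1. In lung epithelial cells the pathway is known for driving epithelial-to-mesenchymal transition (EMT), in which cells lose junction proteins and gain mesenchymal ones.

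Among the members were 8 on a list of microRNA hosts, made of symbols that start with MIR and end with HG plus DLEU2, FTX and CYTOR. The other members were not searched for microRNAs. Of the 8, 7 changed at 1 or more times (values below). The mature microRNAs below belong to these changing hosts and show which products each host carries. They are printed from RefSeq (GRCh38.p14), 5′ to 3′, with the seed, bases 2 to 8, in capitals. The microRNAs themselves were not measured, since the libraries captured polyadenylated RNA.
hsa-miR-31-5p: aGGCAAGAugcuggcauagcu
hsa-miR-193b-3p: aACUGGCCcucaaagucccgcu
hsa-miR-365a-3p: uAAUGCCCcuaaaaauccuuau
hsa-miR-15a-5p: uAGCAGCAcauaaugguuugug
hsa-miR-16-5p: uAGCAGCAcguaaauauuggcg
hsa-miR-4435: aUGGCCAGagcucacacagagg
hsa-miR-1915-3p: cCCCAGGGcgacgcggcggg
hsa-miR-374b-5p: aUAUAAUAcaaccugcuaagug
hsa-miR-421: aUCAACAGacauuaauugggcgc
MIR31HG spans miR-31, MIR193BHG spans miR-193b and miR-365a, DLEU2 spans miR-15a and miR-16, MIR1915HG spans miR-1915, and FTX spans miR-374b and miR-421. In these sequences miR-15a-5p and miR-16-5p have the same seed, AGCAGCA, and the same mature miR-4435 lies in both CYTOR and MIR4435-2HG. Over the 7 changing hosts the table held 21 mature microRNAs with 19 different seeds.

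The set was led by very few transcripts. MALAT1, an RNA of nuclear speckles, averaged 3292 CPM and alone gave 43.4% of the members' UMIs. It was followed by NEAT1 (304 CPM), the scaffold of paraspeckles, then ZFAS1 (228 CPM), CYTOR (135 CPM) and NORAD (130.4 CPM), and these 5 gave 55.8% together. The median member stood at 18.1 CPM, 73 members were under 20 CPM, and 12 were over 50 CPM. In 12 members at least 1 library held fewer than 10 UMIs, so their levels at the low times rest on few molecules.

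All 124 members were found by identifier in GENCODE 44 on GRCh38, where 41 now have another symbol and 1, TUG1, is no longer classed as lncRNA. Their median exon length was 5142 bases, and 26 had a single exon once transcripts were merged. A protein-coding gene overlapped 58 members, on the opposite strand for 50 of them, and 41 shared exon bases with it. Neither the strand setting nor the annotation release behind the authors' counting is known here, and for such members reads of the partner cannot be told apart from their own. Near-identical copies are a second limit. More than 50% of the exonic 50-base words also occurred in another gene for 3 members, ARHGAP27P1-BPTFP1-KPNA2P3 (77.4%), AL512625.1 (74.9%) and CYTOR (54.3%, nearly all of it shared with MIR4435-2HG).

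At 0.5 h against 0 h, 0 of the 124 lncRNAs passed an adjusted p under 0.05 in edgeR's quasi-likelihood test, as did 0 in DESeq2, and 5 had an unadjusted p under 0.05. Over all 11728 genes tested, 0.35% passed (0.324% higher and 0.0256% lower). The lowest p belonged to CDKN2B-AS1, the antisense transcript of the INK4 locus, with 13.4 and 13.3 CPM at 0.5 h against 23.2 and 18.7 CPM at 0 h (log2 change -0.65 ± 0.22 SE, edgeR adjusted p = 0.917).

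From 12 h on, over 26% of the set passed at each time. At 12 h 20 lncRNAs rose and 13 fell, 26.6% of the members, against 12.8% of all genes tested (7.78% higher and 5.06% lower). At 24 h 21 rose and 12 fell, 26.6% of the members, against 11.9% of all genes (7% higher and 4.9% lower). At 48 h 19 rose and 18 fell, 29.8% of the members, against 17.1% of all genes (9.25% higher and 7.89% lower). At 96 h 23 rose and 20 fell, 34.7% of the members, against 22% of all genes (11.3% higher and 10.7% lower). Highly counted genes pass more easily, and among the 7179 protein-coding genes of at least 10 CPM the shares were 15.5%, 14.1%, 19.6% and 25.5% over the same 4 times. No test of the difference between these shares was made. For each of these calls the 2 libraries of the later time did not overlap the 2 of 0 h. With 2 libraries on each side this adds little. At 12 h it also held for members that did not pass, such as AC005261.2 (log2 change -0.08, edgeR adjusted p = 0.837). Its share over all genes was not computed. The median change of the members was -0.11, -0.15, -0.19 and -0.13 on the log2 scale at 12, 24, 48 and 96 h, beside -0.04, -0.01, 0.03 and 0.02 for all genes tested. The median of the set thus lay slightly lower at each time, and this difference was not tested. The number called depended on single libraries at each time: it fell to 21 at 12 h without 0 h replicate 1, to 18 at 24 h without 24 h replicate 1 and to 25 at 96 h without 96 h replicate 2, and stayed at 25 or more at 48 h. A stricter choice kept wells with 3000 or more genes and a mitochondrial share of 20% or less, which left 7 and 13 cells at 0 h. With it 2, 1, 3 and 8 members passed at 12, 24, 48 and 96 h, and 5.79%, 4.7%, 8.32% and 12.5% of the 5047 genes then tested. Over all 8 comparisons only 63 of the 153 calls of members could be tested in these wells. Of the 63, 13 held, 47 no longer passed and 3 turned direction. The 4 comparisons use the same 0 h libraries. The SNHG transcripts and GAS5, snoRNA hosts that the rule left out, numbered 21 at this level. Of these, 1 rose and 6 fell at 12 h (33.3%), and 0 rose and 3 fell at 24 h (14.3%). At 48 h 2 rose and 2 fell (19%), and at 96 h 2 rose and 6 fell (38.1%).

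**Figure D1:**
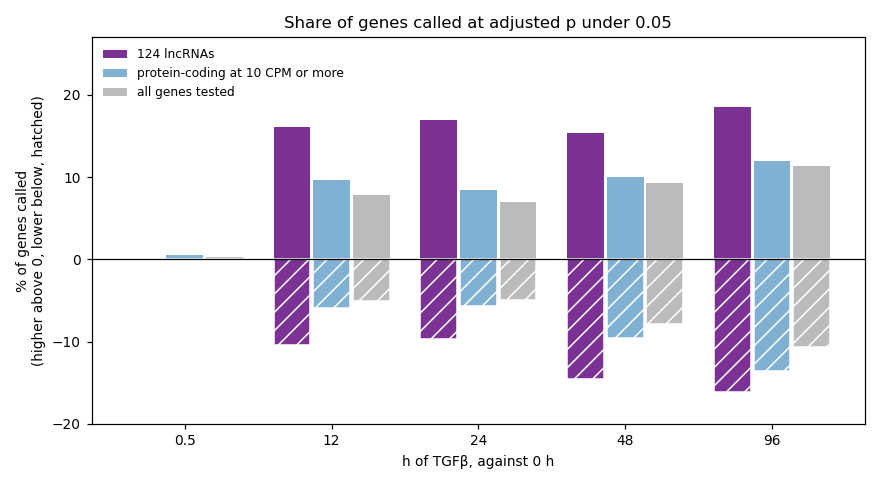
Share of genes (%, y axis) called at an adjusted p under 0.05 (edgeR) against 0 h at each time of TGFβ (x axis), higher above 0 and lower below 0 (hatched), for the 124 lncRNAs (purple), the 7179 protein-coding genes of at least 10 CPM (blue) and all 11728 genes tested (grey). The purple bars are absent at 0.5 h and reach 34.7% in both directions together at 96 h.

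By time course, 57 lncRNAs passed against 0 h at 1 or more of the 4 later times (46.0%) and 67 at none, beside 30.1% of all genes tested and 34.4% of the protein-coding genes of at least 10 CPM that passed at 1 or more. Of the 57, 28 passed only as higher, 27 only as lower, and 2 (LUCAT1 and AC078820.3) in both directions at different times. There were 14 (11.3%, beside 4.02% of all genes tested and 5.07% of the protein-coding genes of at least 10 CPM) that passed as higher at every time from 12 h to 96 h: NKILA, LINC02086, MEG3, MEG8, AC245297.4, AC010198.2, LINC02615, MIR31HG, MIR193BHG, MIR1915HG, AL133476.1, LINC00294, AC058791.1 and CYTOR. The 6 (4.84%, beside 2.29% of all genes tested) that passed as lower at every one of these times were LINP1, GACAT2, DLEU2, LINC00973, MAPKAPK5-AS1 and NORAD. Some of the 14, NKILA among them, reached a mean of 10 CPM only through their later libraries. Of the 6, GACAT2 reached that mean only through its libraries at 0 h and 0.5 h. Both shares, as higher and as lower, are therefore a description. Only at 48 h or 96 h did 6 pass as higher, among them MALAT1, NEAT1 and FTX, and 13 as lower (4.84% and 10.5%, beside 6.8% and 7.73% of all genes tested).

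**Figure D2:**
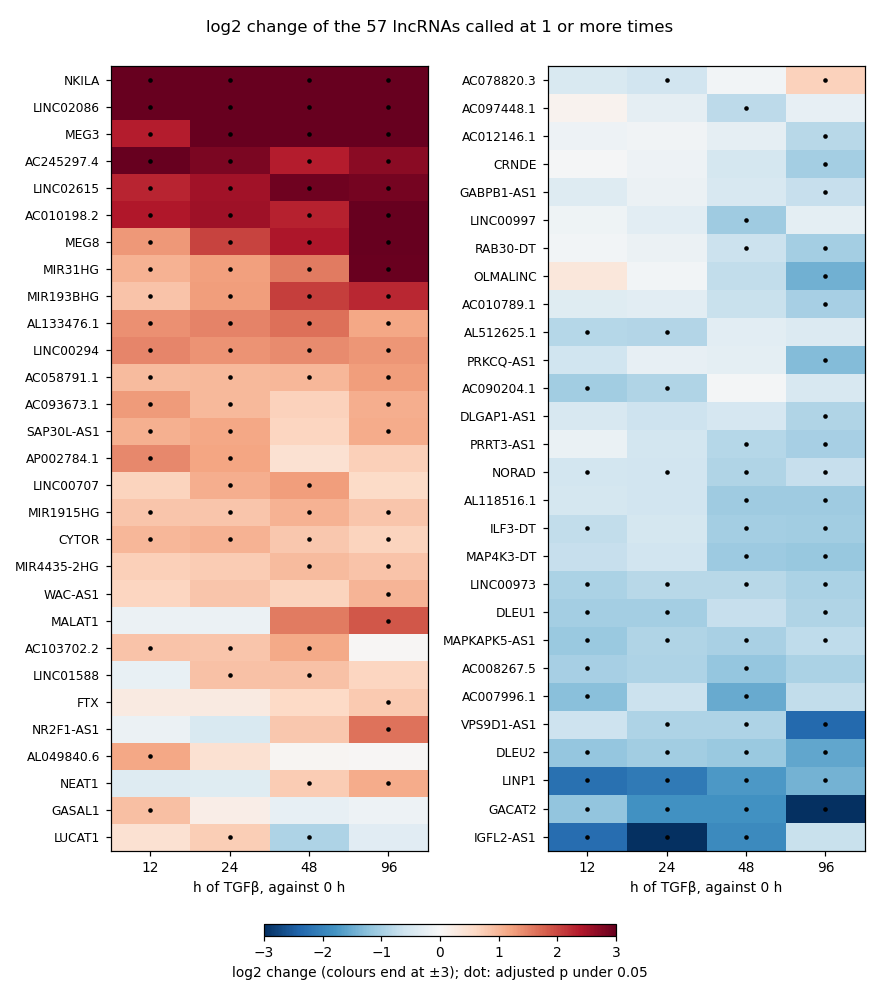
log2 change (colour, red higher and blue lower than 0 h, colours end at ±3) of the 57 lncRNAs called at 1 or more times, at 12, 24, 48 and 96 h of TGFβ (columns) against 0 h. A dot marks an adjusted p under 0.05 (edgeR). NKILA and LINC02086 are dark red in all 4 columns, and LUCAT1 turns from red at 24 h to blue at 48 h.

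The sharpest rise was that of NKILA, an RNA known in human breast cancer cells to bind the NF-κB complex and hold back its activation. It had 30.5 and 21.1 CPM at 12 h, against 0.99 and 1.04 CPM at 0 h (4 UMIs in each library). The later libraries ranged from 15.2 to 29.2 CPM, all above the 4 libraries of 0 h and 0.5 h, whose highest value was 2.53 CPM. Its log2 change was 4.62 ± 0.38 (SE) at 12 h (adjusted p = 1.41e-08), 4.75 ± 0.38 at 24 h and 4.13 ± 0.44 at 96 h, and leaving out any library ended none of its calls. NKILA (chr20:57710156-57712780, plus strand, a single exon) lies antisense to PMEPA1, a TGFβ target that limits SMAD signalling, and shares 343 exon bases with it. PMEPA1 had 1081 and 984 CPM at 12 h against 74.2 and 77.4 CPM at 0 h, a log2 change of 3.77 ± 0.19 at both 12 h and 96 h. As the strand setting is unknown, how much of the NKILA count came from PMEPA1 reads was not tested.

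LINC02086 (chr17:48646923-48707346, beside the HOXB genes) rose as early. It had 34.7 and 28.2 CPM at 12 h against 3.45 and 1.82 CPM at 0 h, and the groups did not overlap (log2 change 3.55 ± 0.34, adjusted p = 1.23e-07). The level then held through 24 h (36.1 and 28.1 CPM) and 48 h (24.4 and 28.1 CPM), and the 2 libraries at 96 h were apart (31.0 and 15.9 CPM). HOXB6, a nearby gene of a homeodomain transcription factor, moved the other way, with a log2 change of -1.22 at 12 h and -3.18 at 96 h.

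AC245297.4 had 23.3 and 21.6 CPM at 12 h against 2.47 and 2.34 CPM at 0 h (log2 change 3.20 ± 0.33), and 33.5% of its exonic 50-base words occurred in other genes. AC010198.2, which overlaps CAPRIN2 on the opposite strand, had 33.0 and 26.3 CPM at 12 h against 6.66 and 4.42 CPM at 0 h, and 52.4 and 48.8 CPM at 96 h. Its log2 change was 2.41 ± 0.26 at 12 h and 3.18 ± 0.27 at 96 h, while CAPRIN2, a gene of an RNA-binding protein, changed by 1.40 and 1.90. LINC02615 had 15.5 and 10.7 CPM at 12 h against 2.47 and 2.86 CPM at 0 h (log2 change 2.28 ± 0.36). In all 3 of these lncRNAs both libraries of every time from 12 h on stood above both at 0 h.

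Other lncRNAs rose by 12 h and stood higher still at the later times. MEG3 and MEG8 are maternally expressed RNAs of an imprinted cluster on chromosome 14, and MEG3 is known in human cells for raising p53 activity. MEG3 had 1.48 and 1.30 CPM at 0 h, 2.15 and 2.76 CPM at 0.5 h, 7.16 and 7.34 CPM at 12 h, 9.74 and 16.9 CPM at 24 h, 16.6 and 24.9 CPM at 48 h, and 14.5 and 30.6 CPM at 96 h. All 8 libraries from 12 h on were above the 4 earlier ones, and from 24 h on replicate 2 stood well above replicate 1. The log2 change was 2.35 ± 0.49 at 12 h (adjusted p = 0.00214) and 4.00 ± 0.47 at 96 h (adjusted p = 1.22e-06). MEG8 had 32.4 and 36.4 CPM at 96 h against 3.21 and 3.38 CPM at 0 h, with 8.09 and 8.29 CPM at 12 h, and the libraries of a time lay close together. Its log2 change was 1.31 ± 0.31 at 12 h, a call that ended without 0 h replicate 1, and 3.38 ± 0.29 at 96 h (adjusted p = 1.28e-08). Between neighbouring times no step from 12 h on passed for either RNA: the adjusted p was 0.95 (24 h against 12 h), 0.32 (48 h against 24 h) and 0.919 (96 h against 48 h) for MEG3, and 0.925, 0.441 and 0.0745 for MEG8. Of the protein-coding genes of the cluster, RTL1 and DIO3 were nearly silent, with 2 UMIs for RTL1 and 1 for DIO3 over all libraries. DLK1 was not found under that symbol.

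MIR31HG (chr9:21380073-21559891, minus strand), the host of miR-31, passed against 0 h at every time from 12 h on and was highest at 96 h. It had 10.4 and 9.88 CPM at 0 h, 8.07 and 8.74 CPM at 0.5 h, 21.7 and 19.9 CPM at 12 h, 28.4 and 18.5 CPM at 24 h, 29.2 and 30.8 CPM at 48 h, and 69.0 and 88.1 CPM at 96 h. Both 96 h libraries were above all 10 others. The log2 change against 0 h was 1.04 ± 0.24 at 12 h and 2.96 ± 0.24 at 96 h (adjusted p = 5.22e-09). Between 48 h and 96 h the change was 1.39 ± 0.22 (adjusted p = 0.00192), and it no longer passed without 96 h replicate 2 (adjusted p = 0.0762). The calls at 12 h and 24 h each ended without a single library (0 h replicate 2 and 24 h replicate 1), and with only the wells of 3000 or more genes and 20% or less mitochondrial UMIs these changes turned direction (-0.19 at 12 h and -0.28 at 24 h), whereas the change at 96 h was 2.05 (adjusted p = 0.00506). IFNE, an interferon gene inside the MIR31HG span, had 3.45 and 9.40 CPM at 96 h against 0.99 and 0.78 CPM at 0 h (log2 change 2.84 ± 0.71, adjusted p = 0.00583), whereas KLHL9, beyond it, changed by 0.12 (adjusted p = 0.762).

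**Figure D3:**
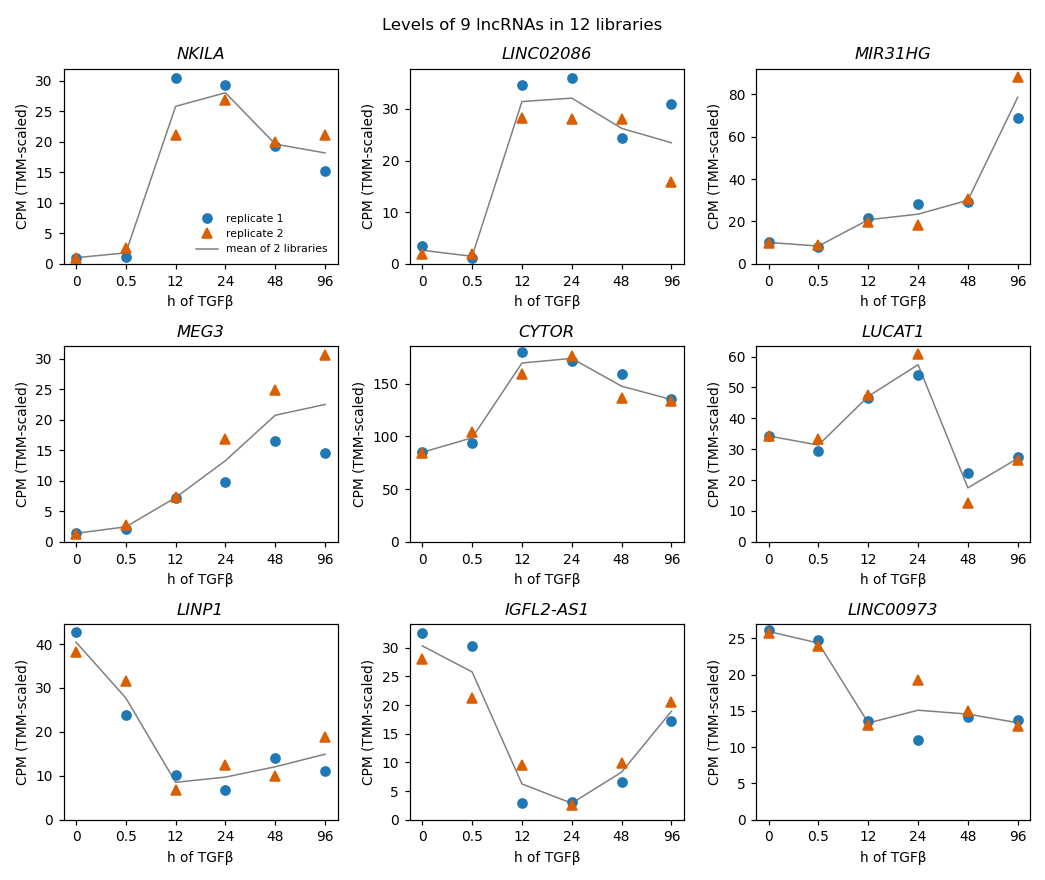
Level (CPM with TMM scaling, y axis) of 9 lncRNAs in all 12 libraries by time of TGFβ (x axis, not to scale). Circles are replicate 1, triangles replicate 2, and the grey line joins the means of 2 libraries. NKILA and LINC02086 jump between 0.5 h and 12 h, MIR31HG is highest at 96 h, and the means of LINP1 and IGFL2-AS1 are lowest at 12 h to 24 h.

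The promoters of the 6 called members with the largest changes among those with a promoter in the RefSeq table are printed to show the sequence before their starts. Each runs from 250 bases before to 50 after the start RefSeq lists (GRCh38.p14), 5′ to 3′ on the gene's strand, with CAGAC, the SMAD box, in capitals on either strand (its reverse complement reads GTCTG). No overlap with the AP-1 motif TGANTCA arose, since that motif was found in none of the 6.
NKILA (chr20:57709933-57710232, plus strand): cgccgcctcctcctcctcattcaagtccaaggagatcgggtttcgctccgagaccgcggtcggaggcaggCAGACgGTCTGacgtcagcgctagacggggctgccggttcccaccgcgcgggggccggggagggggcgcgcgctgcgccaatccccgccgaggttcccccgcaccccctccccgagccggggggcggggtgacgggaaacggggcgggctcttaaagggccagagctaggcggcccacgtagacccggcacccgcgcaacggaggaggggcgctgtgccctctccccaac
MEG3 (chr14:100825858-100826157, plus strand): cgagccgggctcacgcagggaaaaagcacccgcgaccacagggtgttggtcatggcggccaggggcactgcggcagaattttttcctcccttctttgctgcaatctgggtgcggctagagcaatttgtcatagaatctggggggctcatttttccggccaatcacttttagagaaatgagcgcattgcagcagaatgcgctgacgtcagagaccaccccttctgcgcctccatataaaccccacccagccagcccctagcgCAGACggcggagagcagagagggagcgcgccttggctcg
LINC02086 (chr17:48642377-48642676, plus strand): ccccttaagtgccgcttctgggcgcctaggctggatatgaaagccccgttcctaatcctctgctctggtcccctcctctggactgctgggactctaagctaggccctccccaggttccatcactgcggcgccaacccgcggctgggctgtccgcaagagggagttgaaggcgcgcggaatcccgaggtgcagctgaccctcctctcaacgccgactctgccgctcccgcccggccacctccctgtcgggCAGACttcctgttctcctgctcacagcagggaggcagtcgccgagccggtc
GACAT2 (chr18:8707572-8707871, minus strand): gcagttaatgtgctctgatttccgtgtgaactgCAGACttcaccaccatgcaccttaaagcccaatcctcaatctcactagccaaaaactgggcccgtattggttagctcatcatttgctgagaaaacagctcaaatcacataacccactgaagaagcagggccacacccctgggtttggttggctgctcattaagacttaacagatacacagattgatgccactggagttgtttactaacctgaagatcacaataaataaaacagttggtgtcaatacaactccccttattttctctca
MIR31HG (chr9:21559749-21560048, minus strand): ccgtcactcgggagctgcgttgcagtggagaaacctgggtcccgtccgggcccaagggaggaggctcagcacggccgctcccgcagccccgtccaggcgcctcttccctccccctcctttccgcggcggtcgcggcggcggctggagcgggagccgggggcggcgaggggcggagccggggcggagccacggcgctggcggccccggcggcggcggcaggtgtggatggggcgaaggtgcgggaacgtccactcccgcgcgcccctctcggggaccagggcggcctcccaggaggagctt
LINC02615 (chr4:128427766-128428065, plus strand): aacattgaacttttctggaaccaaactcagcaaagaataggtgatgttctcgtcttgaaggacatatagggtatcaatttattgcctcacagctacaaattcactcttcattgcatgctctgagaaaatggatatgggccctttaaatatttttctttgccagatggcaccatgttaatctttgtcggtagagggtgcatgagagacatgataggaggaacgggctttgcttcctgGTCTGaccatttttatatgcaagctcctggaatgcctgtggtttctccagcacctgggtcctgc
CAGAC was found in 5 of these 6 windows, with 2 matches in NKILA and none in MIR31HG. It also occurred in 45.0% of all 27305 promoters of the table, and TGANTCA in 7.76%. A promoter was listed for 64 members, of which 39.1% held CAGAC and 12.5% TGANTCA, and of the 33 called members among them 33.3% and 18.2%. The table lists 3 starts for MEG3 and 2 for LINC02086, and the first was used. A match is only a run of letters and shows no binding.

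The listed hosts of microRNAs moved mostly upward. Of the 8 on the list, 4 rose and 1 fell at both 12 h and 24 h. At 48 h 5 rose and 1 fell, and at 96 h 6 rose and 1 fell. Of all genes tested, 12.8%, 11.9%, 17.1% and 22% passed at 12, 24, 48 and 96 h. The median log2 change of the 8 was 0.78 at 12 h and 0.81 at 96 h, beside -0.04 and 0.02 for all genes tested. The list was chosen with earlier results of these data known, so the counts are a description. MIR193BHG had 75.9 and 88.7 CPM at 96 h against 18.0 and 16.1 CPM at 0 h, with no overlap (log2 change 2.27 ± 0.28, adjusted p = 6.96e-06). Its call at 12 h (adjusted p = 0.0485) ended when any one of 6 libraries was left out (both of 0 h, both of 0.5 h, 12 h replicate 2 or 96 h replicate 1), and that at 24 h without 0 h replicate 2 or 24 h replicate 2. MIR1915HG stood at 50.3 to 68.6 CPM in the 8 libraries from 12 h on against 32.6 and 32.5 CPM at 0 h (log2 change 0.84 ± 0.19 at 12 h).

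CYTOR, a cytoplasmic RNA that is often raised in tumours, had 180.0 and 159 CPM at 12 h against 85.6 and 84.2 CPM at 0 h (log2 change 1.0 ± 0.15, adjusted p = 5.18e-05). It was still above 0 h at 96 h, with 136 and 134 CPM (log2 change 0.67), and both libraries of each time from 12 h on exceeded all 4 of 0 h and 0.5 h. MIR4435-2HG, which shares long stretches with CYTOR, had 19.3 and 28.2 CPM at 96 h against 9.87 and 16.6 CPM at 0 h (log2 change 0.86, adjusted p = 0.0446, lost without 0 h replicate 1, either 0.5 h library or 96 h replicate 2). FTX rose at 96 h (log2 change 0.79, adjusted p = 0.0183, lost without either 0 h library or 96 h replicate 2). The listed host that fell was DLEU2, with 10.3 and 9.40 CPM at 96 h against 34.8 and 22.9 CPM at 0 h (log2 change -1.55 ± 0.30, edgeR adjusted p = 0.000587). Its calls at 12 h, 24 h and 48 h ended without 0 h replicate 1. MIRLET7A1HG, the let-7a host, passed at no time (13.1 and 20.6 CPM at 96 h against 12.8 and 12.5 CPM at 0 h).

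A list of RNAs linked in earlier work to TGFβ or EMT held 19 genes, of which 16 were in the deposited table and 8 were members. Of these 8, 4 rose at 12 h and 24 h, 5 at 48 h and 6 at 96 h, and none fell. These are 50%, 50%, 62.5% and 75% of the 8 over the 4 times, beside 12.8%, 11.9%, 17.1% and 22% of all genes tested. NKILA and MEG3 met the limit on the mean only through their later libraries. The list was also chosen with earlier results of these data known, so the shares are a description. The 6 at 96 h were NKILA, MEG3, MIR31HG, CYTOR, NEAT1 and MALAT1. TUG1, which helps to recruit repressive chromatin complexes, had 36.6 and 28.8 CPM at 96 h against 36.3 and 35.1 CPM at 0 h, and PVT1, the neighbour of MYC, 41.4 and 38.8 CPM against 45.1 and 44.4 CPM. Neither passed at any time.

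MALAT1 and NEAT1, which lie side by side on chromosome 11, were high late. NEAT1 had 252 and 245 CPM at 0 h, 214 and 251 CPM at 0.5 h, 181 and 202 CPM at 12 h, 185 and 204 CPM at 24 h, 422 and 416 CPM at 48 h, and 569 and 506 CPM at 96 h. The 4 libraries of 48 h and 96 h lay above all 8 others. The log2 change against 0 h was 0.75 ± 0.15 at 48 h (adjusted p = 0.000778) and 1.11 ± 0.15 at 96 h (adjusted p = 7.29e-06), and 48 h stood above 24 h by 1.11 (adjusted p = 6.69e-05). No library ended these calls when left out. FRMD8, the next gene on the same strand, changed by 0.75 at 12 h and 1.23 at 96 h.

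MALAT1 had 6435 and 7442 CPM at 96 h and 4173 and 7042 CPM at 48 h, against 1520.2 and 2281 CPM at 0 h. At 12 h and 24 h it had 1191 and 2199 CPM and 1182 and 2169 CPM, and replicate 2 was the higher at all 6 times. The log2 change was 1.56 ± 0.45 at 48 h (adjusted p = 0.0532) and 1.87 ± 0.45 at 96 h (adjusted p = 0.023), and the call at 96 h ended when any one of its 4 libraries was left out (adjusted p = 0.0539 at the lowest and 0.113 at the highest). Within each of the 2 barcode sets the 48 h and 96 h libraries were above that of 0 h, and with the set as a term in the edgeR model the log2 change was 1.54 ± 0.15 at 48 h (adjusted p = 6.87e-09) and 1.91 ± 0.15 at 96 h (adjusted p = 1.13e-10). The median over single cells was 982 to 2081 CPM per library at 0 h to 24 h and 3662 to 6181 CPM at 48 h and 96 h. Wells with under 1000 detected genes, which can hold free RNA, moved the same way, with 6340 to 13796 CPM of MALAT1 at 48 h and 96 h and 2166 to 4966 CPM at 0 h to 24 h. The median mitochondrial share of cells was 20.3% to 24.1% at 48 h and 96 h and 21.9% to 25% at 0 h to 24 h, and its part in the MALAT1 level was not tested. Summed over all members, the set held 7468 to 11332 CPM at 48 h and 96 h and 4408 to 5864 CPM before, but without MALAT1 3442 to 3947 CPM and 3256 to 3530 CPM, so the difference lay almost wholly in MALAT1.

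Among the RNAs that fell at every time from 12 h on was LINP1. LINP1 (chr10:6709530-6740532, plus strand) is known in human breast cancer cells as a scaffold that joins Ku80 and DNA-PKcs in the repair of double-strand breaks. It had 42.7 and 38.2 CPM at 0 h, 23.9 and 31.5 CPM at 0.5 h, 10.2 and 6.87 CPM at 12 h, 6.84 and 12.6 CPM at 24 h, 14.1 and 9.98 CPM at 48 h, and 11.0 and 18.8 CPM at 96 h. Every library from 12 h on was below the 4 earlier ones. The log2 change was -2.24 ± 0.28 at 12 h (adjusted p = 7.08e-06) and -1.42 ± 0.31 at 96 h (adjusted p = 0.00176), and each call held when any library was left out. At 0.5 h it was -0.54 (unadjusted p = 0.0431, adjusted p = 1), which does not pass.

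IGFL2-AS1 (chr19:46189029-46203160, minus strand) was low at 12 h, 24 h and 48 h. Its libraries from 12 h on would not alone have met the limit on the mean, so its fall is a description. It had 32.6 and 28.1 CPM at 0 h, 30.4 and 21.2 CPM at 0.5 h, 3 and 9.48 CPM at 12 h, 3.11 and 2.65 CPM at 24 h, 6.62 and 9.98 CPM at 48 h, and 17.2 and 20.6 CPM at 96 h. The libraries of 12 h, 24 h and 48 h were all below 10 CPM, and those of 96 h lay between them and 0 h. The log2 change was -2.28 ± 0.34 at 12 h, -3.36 ± 0.39 at 24 h (adjusted p = 4.34e-06), -1.91 ± 0.35 at 48 h and -0.67 at 96 h (adjusted p = 0.17). The steps upward did not pass, with 1.45 between 48 h and 24 h (adjusted p = 0.103) and 1.23 between 96 h and 48 h (adjusted p = 0.207). IGFL1, of a family of small secreted proteins and 26582 bases away, moved the other way, with 24.0 and 33.4 CPM at 12 h against 0.74 and 1.04 CPM at 0 h (log2 change 4.96 ± 0.97, adjusted p = 0.0145). IGFL2 itself was too low to be tested.

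LINC00973 (chr3:98981058-98983096, plus strand) fell less. It had 26.1 and 25.7 CPM at 0 h, 24.7 and 23.9 CPM at 0.5 h, 13.6 and 13.0 CPM at 12 h, 11.0 and 19.2 CPM at 24 h, 14.1 and 15.0 CPM at 48 h, and 13.8 and 12.9 CPM at 96 h. The libraries from 12 h on did not overlap the earlier ones. The log2 change was -0.96 at 12 h (adjusted p = 0.00806), -0.82 at 24 h (adjusted p = 0.0251), -0.84 at 48 h (adjusted p = 0.0223) and -0.96 at 96 h (adjusted p = 0.0161). Each of these calls ended without 0 h replicate 1, and also without either library of the later time (at 24 h, replicate 1 only) or, at 24 h and 48 h, without 0 h replicate 2.

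GACAT2 fell furthest by 96 h. It met the limit on the mean only through its libraries at 0 h and 0.5 h, so its fall is a description. It had 24.2 and 21.3 CPM at 0 h, 25 and 25.3 CPM at 0.5 h, 5.54 and 14.4 CPM at 12 h, 7.05 and 5.62 CPM at 24 h, 6.92 and 5.89 CPM at 48 h, and 2.07 and 2.35 CPM at 96 h (3 and 4 UMIs). All 8 libraries from 12 h on were below the 4 earlier ones. The log2 change was -1.19 ± 0.30 at 12 h, a call that ended without 0 h replicate 1 or 12 h replicate 1, and -3.34 ± 0.49 at 96 h (adjusted p = 2.3e-05). MTCL1, a microtubule cross-linking factor gene that GACAT2 overlaps on the opposite strand, had 37.2 and 30.0 CPM at 96 h against 16.8 and 17.4 CPM at 0 h (log2 change 0.97).

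VPS9D1-AS1 had 5.52 and 5.29 CPM at 96 h (8 and 9 UMIs) against 29.4 and 25.2 CPM at 0 h, with no overlap (log2 change -2.33 ± 0.37, adjusted p = 6.64e-05). NORAD, which binds PUMILIO proteins and keeps chromosomes stable in human cells, had 115 and 102 CPM at 96 h against 174 and 173 CPM at 0 h (log2 change -0.68, lost without 96 h replicate 2). CRNDE, first known from colorectal tumours, had 37.2 and 38.2 CPM at 96 h against 84.4 and 68.1 CPM at 0 h (log2 change -1.01, adjusted p = 0.000635). Others among the members that fell most at 96 h were OLMALINC (log2 change -1.45), PRKCQ-AS1 (-1.30), MAP4K3-DT (-1.13) and AL118516.1 (-1.06), of which OLMALINC alone kept its call whichever library was left out (96 h replicate 1 ended each of the other 3). At 12 h AC007996.1 (-1.25), MAPKAPK5-AS1 (-1.11), AC090204.1 (-1.03) and DLEU1 (-1.02) were among those that fell most, and each of these 4 calls at 12 h ended without 1 or 2 single libraries, 12 h replicate 1 for MAPKAPK5-AS1, AC090204.1 and DLEU1 and 12 h replicate 2 for AC007996.1. On the rising side at 12 h stood LINC00294 (1.46 ± 0.24), with 32.1 and 32.7 CPM at 12 h against 10.6 and 13.0 CPM at 0 h, and AP002784.1 (1.45 ± 0.26), which no longer passed at 48 h and 96 h.

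LUCAT1 passed in both directions. This RNA is induced in human airway cells by cigarette smoke and by the stress factor NRF2. It had 34.3 and 34.3 CPM at 0 h, 29.3 and 33.4 CPM at 0.5 h, 46.7 and 47.6 CPM at 12 h, 53.9 and 60.9 CPM at 24 h, 22.3 and 12.7 CPM at 48 h, and 27.6 and 26.4 CPM at 96 h. The 12 h and 24 h libraries lay above, and the 48 h and 96 h libraries below, all of the earliest 4. Against 0 h the log2 change was 0.74 at 24 h (adjusted p = 0.0148, lost without either 0 h library or 24 h replicate 2), -0.93 at 48 h (adjusted p = 0.00526, and -0.66 with adjusted p = 0.084 without 48 h replicate 2) and -0.35 at 96 h (adjusted p = 0.316). The step from 24 h to 48 h was tested directly and was -1.67 ± 0.22 (adjusted p = 5.49e-05). AC078820.3 did the reverse, with 48.7 and 49.0 CPM at 24 h and 105 and 128 CPM at 96 h, against 66.1 and 79.0 CPM at 0 h (log2 changes -0.57 and 0.68), and its calls ended without 0 h replicate 2 or either 24 h library at 24 h, and without 0 h replicate 1 or 96 h replicate 2 at 96 h.

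Between neighbouring times few members passed. None of the 124 differed between 24 h and 12 h in edgeR or in DESeq2, 7 had an unadjusted p under 0.05, and 0% of all genes passed in edgeR. Between 48 h and 24 h 3 rose (NR2F1-AS1, NEAT1 and AC090204.1) and 2 fell (LUCAT1 and AL162411.1), 4.03% of the members against 4.37% of all genes tested (2.12% higher and 2.24% lower). Without 24 h replicate 1 or 48 h replicate 2 only 2 were left, and without 24 h replicate 2, 3. Between 96 h and 48 h MIR31HG and AC078820.3 rose and none fell, 1.61% against 0.946% of all genes (0.597% higher and 0.35% lower). That count was 1 without 48 h replicate 1 or 96 h replicate 1, and 0 without 96 h replicate 2. NR2F1-AS1, antisense to the gene of the nuclear receptor NR2F1, had 26.9 and 24.7 CPM at 96 h against 7.65 and 9.10 CPM at 0 h (log2 change 1.62, adjusted p = 0.000217).

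Of the 7 members on a list of RNAs linked to p53, DNA repair or NRF2, 1 rose (MEG3) and 2 fell (LINP1 and NORAD) at both 12 h and 96 h, 2 rose and 2 fell at 24 h, with LUCAT1 higher, and 1 rose and 3 fell at 48 h, with LUCAT1 lower. That is 42.9% of these 7 members at 12 h and 96 h and 57.1% at 24 h and 48 h, beside 12.8%, 11.9%, 17.1% and 22% of all genes tested over the 4 times. This list too was chosen with earlier results of these data known, so the shares are a description. PURPL, which restrains p53, had 12.4 and 15.3 CPM at 96 h against 9.62 and 15.1 CPM at 0 h, and LINC-PINT, a p53 target, 13.8 and 13.5 CPM against 12.3 and 14 CPM. CDKN2B-AS1 had 30.3 and 23.5 CPM against 23.2 and 18.7 CPM, and these 3 passed at no time. A short list of snoRNA hosts outside the SNHG names held ZFAS1, DANCR and EPB41L4A-AS1. The set was not searched for other such hosts. These 3 did not pass either. ZFAS1 had 236 and 290.0 CPM at 96 h against 223 and 237 CPM at 0 h. DANCR had 45.5 and 41.7 CPM against 54.3 and 61.1 CPM, and EPB41L4A-AS1 26.2 and 27 CPM against 32.8 and 28.6 CPM.

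By name, the 33 members that carry the name of a protein-coding gene had 1 higher and 3 lower at 12 h (12.1%, beside 12.8% of all genes tested) and 3 higher and 9 lower at 96 h (36.4%, beside 22%), with a median log2 change of -0.33 at 96 h. Of the 21 named LINC, 3 rose and 1 fell at 12 h and again 3 and 1 at 96 h (19% each time). Of the 36 known by a clone name, 8 rose and 4 fell at 12 h (33.3%) and 6 rose and 3 fell at 96 h (25%).

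Neighbouring protein-coding genes, taken within 50 kb or by name and fitted in the same model, changed with some members and against others. Beside PMEPA1, CAPRIN2, IFNE and FRMD8, PGRMC2 (3922 bases from LINC02615) changed by 1.25 at 12 h and 1.07 at 96 h, and TCP11L1, which overlaps LINC00294 on the same strand, by 1.46 and 1.16. NR2F1 changed by 0.80 at 96 h (adjusted p = 0.0339) and RAB30 by -1.42 (adjusted p = 0.0442), and this beside -1.02 for RAB30-DT. In the other direction, SCD, the stearoyl-CoA desaturase next to OLMALINC, had 1991 and 1560 CPM at 96 h against 586 and 515 CPM at 0 h (log2 change 1.69) while OLMALINC had 6.90 and 8.23 CPM against 24.2 and 17.4 CPM. CSTF3 changed by -0.81 at 96 h where LINC00294, which it overlaps, changed by 1.32. SAP30L did not pass (-0.15) beside SAP30L-AS1 (1.1 at 96 h), whereas GALNT10, which SAP30L-AS1 also overlaps, changed by 0.90. For overlapping pairs these values could share reads, as above.

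**Figure D4:**
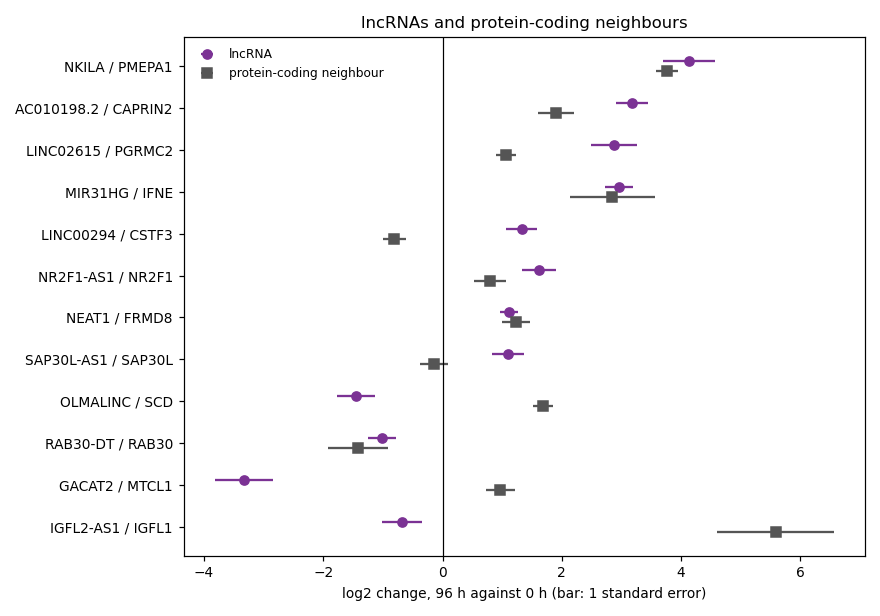
log2 change at 96 h against 0 h (x axis, bars ± 1 SE) of 12 lncRNAs (purple circles) and a protein-coding neighbour of each (grey squares). The pairs were chosen after their values were seen. NKILA and PMEPA1 lie close together near 4, while OLMALINC and SCD, GACAT2 and MTCL1, LINC00294 and CSTF3 and IGFL2-AS1 and IGFL1 lie on opposite sides of 0.

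In single cells most of the set was sparse. With each cell thinned to 10000 UMIs (1798 cells, 52 to 209 per library, 73 shallower cells left out), the median member had a UMI in 15.4% of cells, 12 members in under 10% and 8 in over 50%. MALAT1 was found in 99.2% to 100% of the cells of every library. NKILA had a UMI in 27.3% (exact 95% interval 21.0% to 34.4%) and 21.1% (15.7% to 27.2%) of cells at 12 h, against 1.11% (0.135% to 3.96%) and 1.23% (0.149% to 4.36%) at 0 h. Wells with under 1000 detected genes gave 2.72% and 3.87% at 12 h and 0.581% and 0.599% at 0 h. These wells were not thinned and held a median of only 1120 and 827 UMIs at 12 h and 1006.5 and 1257 UMIs at 0 h. At such unlike depth their shares cannot be set against those of the cells. Before thinning, the shares of cells were 43.6% and 30.4% at 12 h and 2.21% and 2.41% at 0 h. These intervals cover counting error only.

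MIR31HG was found in 51.9% (37.6% to 66.0%) and 57.1% (44.1% to 69.5%) of cells at 96 h, against 10.6% (6.48% to 16.0%) and 13.5% (8.66% to 19.7%) at 0 h. The wells under 1000 genes gave 6.90% and 6.75% at 96 h, at a median of only 841.5 and 496 UMIs, so not at like depth. LINP1 was found in 7.65% (4.25% to 12.5%) and 5.74% (3.002% to 9.82%) of cells at 12 h, against 33.9% (27.01% to 41.3%) and 25.8% (19.2% to 33.2%) at 0 h. At 96 h the share for LINP1 was 7.69% (2.14% to 18.5%) and 22.2% (12.7% to 34.5%), and the interval of replicate 2 met those of 0 h. The intervals hold for the cells of 1 library, and no test of these shares over libraries was made. LUCAT1 was found in 38.9% and 41.8% of cells at 24 h, and in 18.3% and 10.9% at 48 h, against 25.6% and 24.5% at 0 h. IGFL2-AS1 was found in 2.19% and 6.70% at 12 h and in 13.5% and 14.3% at 96 h, against 20% and 23.9% at 0 h. Of all members, the variance of counts per cell exceeded the mean most for MALAT1 (7.62 times, median over libraries) and NEAT1 (1.78 times). These RNAs also had the highest levels of the set, and the ratio was not adjusted for level.

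**Figure D5:**
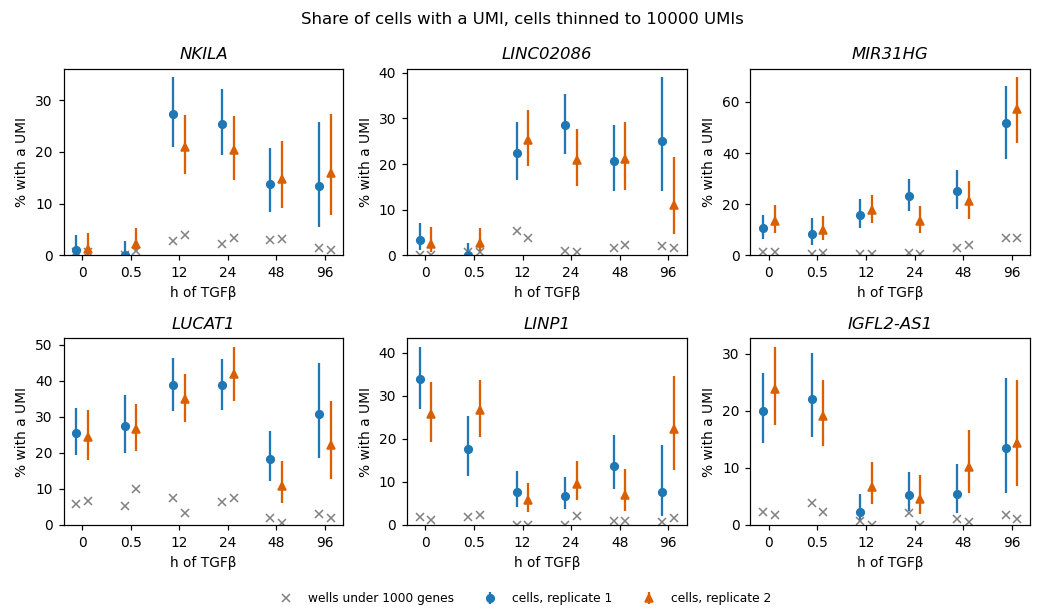
Share of cells with at least 1 UMI (%, y axis) of 6 lncRNAs by time of TGFβ (x axis, not to scale), after thinning each cell to 10000 UMIs. Circles are replicate 1, triangles replicate 2, bars are exact 95% binomial intervals, and grey crosses are wells with under 1000 detected genes, which were not thinned. The median such well held far fewer UMIs, so crosses and cells are not at like depth. The shares of NKILA and LINC02086 are higher from 12 h on than before, and that of MIR31HG is over 50% in both 96 h libraries. As means of the 2 libraries, those of LINP1 and IGFL2-AS1 are lowest at 12 h and 24 h, though single libraries overlap later ones for LINP1.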

How the data were processed

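Single A549 cells were sorted into 384-well plates and CEL-Seq2 libraries were made, 2 per time point. The deposited table holds UMI counts per gene and well, which the authors made, per the labels, with Trim Galore 0.6.7, HISAT2 2.2.1, featureCounts 2.0.1 and UMI-tools on GRCh38. No source used here states the annotation release or whether strand was used in counting. A well was kept with 100 to 40000 UMIs, a mitochondrial share of 35% or less and 2000 to 7000 genes detected, and counts of kept wells were summed per library. No doublet caller was run, since cells were sorted singly. The members were the lncRNA genes at a mean of at least 10 CPM over all genes, without SNHG names and GAS5. The members and the gene lists were chosen with earlier results of these data known.

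Sums were fitted in R 4.3.3 with edgeR 4.0.16 (TMM, filterByExpr, robust quasi-likelihood F test) in one model of 12 libraries and 6 time means (6 residual degrees of freedom), with Benjamini-Hochberg adjustment over 11728 genes of every type in each of 8 comparisons. A gene was called at an adjusted p under 0.05. Levels are CPM with TMM scaling (factors 0.958 to 1.03), and ± gives the SE of a log2 change. Depth was 1407221 to 4949776 UMIs per library, so 1 UMI is under 1 CPM. Named genes were the 3 markers of the set, the listed RNAs, the largest called changes in each direction (up to 8 at 12 h and 96 h, up to 4 elsewhere), those at the limit, and neighbours. CRNDE, RAB30-DT, SAP30L-AS1 and SCD were named after their values were seen. The test was run on simulated counts first. Alternatives were DESeq2 1.42.0, no TMM, no filter on low counts, protein-coding and lncRNA genes only, stricter wells (at least 3000 genes, at most 20% mitochondrial), sums thinned to equal depth, the replicate number as a block, and each library left out. Cells were thinned to 10000 UMIs with seed 20240508 in Python 3.11.15. Positions come from GENCODE 44, promoters and microRNAs from RefSeq GRCh38.p14.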

Additional observations from a re-analysis of the deposited data

Results flagged for a closer look

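Wells with under 1000 detected genes, which entered no comparison, held more MALAT1 late in the course than at 0 h. They gave 6340 and 8270 CPM at 48 h (replicates 1 and 2) and 8705 and 13800 CPM at 96 h, against 2808 and 3454 CPM at 0 h, and each of these 4 late values lies above both 0 h values. No other result met the criteria for a closer look, and groups of 2 libraries were too small to be searched for single libraries that stand apart.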

How the results depend on the processing

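Calls rested on 2 libraries per time and on depth: over 12, 24, 48 and 96 h, 13 of 33, 14 of 33, 22 of 37 and 20 of 43 calls of members held whichever library was left out. With a library left out, the number called stayed at 0 at 0.5 h and ranged over 21 to 35, 18 to 36, 25 to 38 and 25 to 46 for the 4 later times against 0 h, 0 to 1 between 24 h and 12 h (1 without 12 h replicate 2), 2 to 6 between 48 h and 24 h, and 0 to 3 between 96 h and 48 h (3 without 48 h replicate 2). Over 153 calls of single members, 115 remained with DESeq2, 148 without TMM scaling, 140 without the filter on low counts and 104 with sums thinned to the smallest library, and none reversed. Counts of calls that moved were 4 between 96 h and 48 h without the filter, and 3 between 48 h and 24 h and 1 between 96 h and 48 h with thinned sums. With stricter wells (7 and 13 cells at 0 h) they were 2, 1, 3 and 8 for the same 4 times against 0 h, 2 between 48 h and 24 h and 0 between 96 h and 48 h. Only 63 of the 153 calls could be tested there. Of these, 13 held, 47 no longer passed and 3 log2 changes reversed, MIR31HG at 12 h (-0.19) and 24 h (-0.28) and AC097448.1 at 48 h (0.28). The cause was not tested, but few cells were left. Same-numbered libraries deviated together only in part (r -0.119 to 0.315, over 0.1 in 8 of 15 pairs of times), so the numbers were not taken as pairs. With the replicate number as a block, 40, 40, 44 and 46 members were called at 12, 24, 48 and 96 h, 7 between 48 h and 24 h and 5 between 96 h and 48 h, and no single call was lost. Without mitochondrial genes in the total, the members summed to 7057, 6852, 6679, 6551, 11610 and 13810 CPM from 0 h to 96 h (means of 2 libraries, in place of 5357, 5249, 5094, 4995, 9057 and 10950 CPM). Left-out libraries gave 4850 to 5864, 4928 to 5570, 4546 to 5643, 4408 to 5582, 7468 to 10650 and 10580 to 11330 CPM. In cells thinned to 5000 UMIs, the mean shares were 9.46% at 96 h and 0% at 0 h for NKILA, 32.5% and 5.24% for MIR31HG, and 11.2% and 13.3% for IGFL2-AS1, and 18.2% at 0 h for LINP1.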

Other observations

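CBR3-AS1 differed between the libraries of a time more than any other member. It had 0.602 and 29.9 CPM at 48 h and 1.38 and 39.4 CPM at 96 h (replicates 1 and 2), against 36.3 and 3.38 CPM at 0 h, and 3.32 and 28.1 CPM at 24 h. The higher library was replicate 1 at 0 h and replicate 2 at 24 h, 48 h and 96 h, and the gene was called at no time. At 12 h the readthrough transcript ARHGAP27P1-BPTFP1-KPNA2P3 had 7.62 and 37.7 CPM. Replicate 2 was the higher at all 6 times for 9 members, MALAT1 and ZFAS1 among them, and replicate 1 for 7, among them VPS9D1-AS1.

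LTBP3, which encodes a binding protein of latent TGFβ and lies 30486 bases from MALAT1, had 28.3 and 38.8 CPM at 96 h against 3.70 and 7.28 CPM at 0 h (log2 change 2.62, edgeR adjusted p = 2.69e-06). BCL2L11, the gene of the death factor BIM and a neighbour of MIR4435-2HG, had 26.6 and 28.5 CPM at 0.5 h and 37.2 and 44.5 CPM at 12 h, against 9.62 and 11.4 CPM at 0 h. Both genes were named after their values were seen.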
